A study of Mus musculus with 12 samples.

Results

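The genes that make and use nicotinamide adenine dinucleotide (NAD) in mouse skeletal muscle were measured on 12 one-colour Affymetrix arrays, 1 per mouse. They comprised 9 members, given by symbol, out of 11345 genes tested: Nampt, Nmrk1, Nmrk2, Nmnat1, Nmnat3, Nadk, Nnt, Sirt1 and Sirt3. There were 4 groups of 3 mice: GPR120 KO on high fat diet (HFD), GPR120 KO on normal diet (ND), wild type (WT) on HFD and WT on ND. GPR120, the product of Ffar4, binds long-chain fatty acids at the cell surface. Mice of every group were aged 16 weeks and shared a background that mixed 129/Sv with C57BL/6. The sources used here state neither how the KO allele was made nor the sex, muscle or litter, and cohort and group cannot be told apart. The members were represented on the array by 18 probe sets, of which 14 had a mean log2 signal above the median of all probe sets (3.78), the filter used here. Probe sets were selected on their mean signal over all 12 arrays: the brightest passing one stood for each gene, so all 9 members were tested. The brightest probe sets averaged 4.81 (Nmrk1) to 10.46 (Nnt).

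NAD carries electrons between the enzymes of fuel oxidation, and it is also consumed as a substrate by enzymes that remove acyl groups or attach ADP-ribose. Muscle rebuilds most of it by salvage. Nicotinamide is turned into nicotinamide mononucleotide (NMN) by Nampt, which limits the rate of the route, and nicotinamide riboside is turned into NMN by the kinases Nmrk1 and Nmrk2, of which Nmrk2 is largely restricted to striated muscle. Nmnat1 in the nucleus and Nmnat3, described in mitochondria, complete NAD from NMN. Nadk adds a phosphate to give NADP, and Nnt, the nicotinamide nucleotide transhydrogenase of the inner mitochondrial membrane, uses the proton gradient to make NADPH. Sirt1 (nuclear) and Sirt3 (mitochondrial) are NAD-dependent deacylases.

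The promoter sequences of the 4 members with a called difference are shown because they differ in composition, as 250 bases before the annotated start, 5′ to 3′ on the gene's strand, from RefSeq on GRCm38.p6. Of the 9 members, 8 matched the promoter table. Capitals mark TATAAA, the E-box CACGTG and the GC box GGGCGG, searched on both strands (TTTATA and CCGCCC are the reverse forms), and CCAAT (reverse ATTGG). The windows are chr10:81202038-81202287 (minus strand) for Nmrk2, chr12:32820085-32820334 (plus strand) for Nampt, chr4:149485211-149485460 (minus strand, the first of 2 listed starts) for Nmnat1 and chr10:63339036-63339285 (minus strand) for Sirt1.
Nmrk2: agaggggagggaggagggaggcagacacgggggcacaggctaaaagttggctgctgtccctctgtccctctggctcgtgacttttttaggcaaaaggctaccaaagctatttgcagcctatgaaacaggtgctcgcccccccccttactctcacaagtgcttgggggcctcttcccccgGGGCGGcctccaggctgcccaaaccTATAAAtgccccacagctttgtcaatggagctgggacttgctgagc
Nampt: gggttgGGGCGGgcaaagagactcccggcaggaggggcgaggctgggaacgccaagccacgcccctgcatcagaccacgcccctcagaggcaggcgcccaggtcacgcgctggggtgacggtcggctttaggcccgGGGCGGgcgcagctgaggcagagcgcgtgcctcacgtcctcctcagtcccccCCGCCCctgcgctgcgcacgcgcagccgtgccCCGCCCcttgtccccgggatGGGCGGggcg
Nmnat1: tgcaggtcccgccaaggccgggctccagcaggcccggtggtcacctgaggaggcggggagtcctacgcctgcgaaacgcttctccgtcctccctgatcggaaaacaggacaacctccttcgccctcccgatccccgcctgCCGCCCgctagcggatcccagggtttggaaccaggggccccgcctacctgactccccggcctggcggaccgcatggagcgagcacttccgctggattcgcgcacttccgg
Sirt1: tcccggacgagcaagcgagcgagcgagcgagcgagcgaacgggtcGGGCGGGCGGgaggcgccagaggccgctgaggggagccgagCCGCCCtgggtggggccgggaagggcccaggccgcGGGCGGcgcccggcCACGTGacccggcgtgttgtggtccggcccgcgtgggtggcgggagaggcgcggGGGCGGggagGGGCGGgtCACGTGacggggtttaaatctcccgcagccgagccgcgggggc

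Nmrk2 held 1 TATAAA, beginning 46 bases before the start, a motif found in 12.4% of 32851 mouse promoter windows of this length. Sirt1 held 2 CACGTG, at 115 and 43 bases before the start, against 6.02% of all windows with at least 1. GGGCGG occurred 6 times in Sirt1, where 2 of the copies overlap, 5 times in Nampt, once in Nmrk2 and once in Nmnat1, and in 32.7% of all windows. CCAAT, in 33.8% of all windows, was in none of these 4 windows, but 1 began 28 bases before the second listed start of Nmnat1. The GC content was 79.2% for Sirt1, 75.6% for Nampt, 69.2% for Nmnat1 and 58.8% for Nmrk2, against a median of 52.4% over all windows. These matches are letters in a window and say nothing of which factors bound.

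The samples read as skeletal muscle. All 10 muscle markers, among them Ckm, Acta1 and Myh4, averaged 12.29 to 13.97 on the log2 scale, while 0 of 3 liver markers passed the filter. Ffar4 was below the filter, with a mean of 1.61, and gave no check of the genotype labels. Its values were 0.98 to 3.19 in KO HFD, 0.33 to 3.88 in KO ND, 0.56 to 2.40 in WT HFD and −1.39 to 2.26 in WT ND. No 2 arrays were identical. A sign of RNA integrity, the log2 ratio of 3′ to 5′ signal averaged over the beta-actin and Gapdh controls, was 0.16 ± 0.13 in KO HFD, 0.07 ± 0.06 in KO ND, 0.18 ± 0.02 in WT HFD and −0.02 ± 0.09 in WT ND (SD, n = 3). It was therefore lowest on average in WT ND, and its part in the results below was tested only by entering it as a covariate.

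On HFD, WT muscle had higher Nmrk2 and Nmnat1 and lower Sirt1, while KO muscle had 0 of 9 members past the threshold; the test of the difference between genotypes called none of these genes. In limma, with Benjamini-Hochberg adjustment over all genes and a threshold of 0.05, 3 of 9 members were called for the diet effect in WT, where 6.06% of all genes were called: 2 rose (3.07% of all genes) and 1 fell (2.99%). The median log2 difference was 0.25 over the members and 0.04 over all genes. For the diet effect in KO, 0 of 9 members were called against 4.54% of all genes. An unadjusted limma p under 0.05 was found for 2 of 9 members and for 2262 of all 11345 genes. Averaged over genotypes, 2 of 9 were called, with a background of 13.7%: Nmnat1 rose (7.49% of all genes) and Sirt1 fell (6.19%). The members were chosen with earlier results of these data known, so these shares describe them and single out nothing. In bulk tissue, fewer cells of a type and less RNA per cell cannot be told apart.

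**Figure D1:**
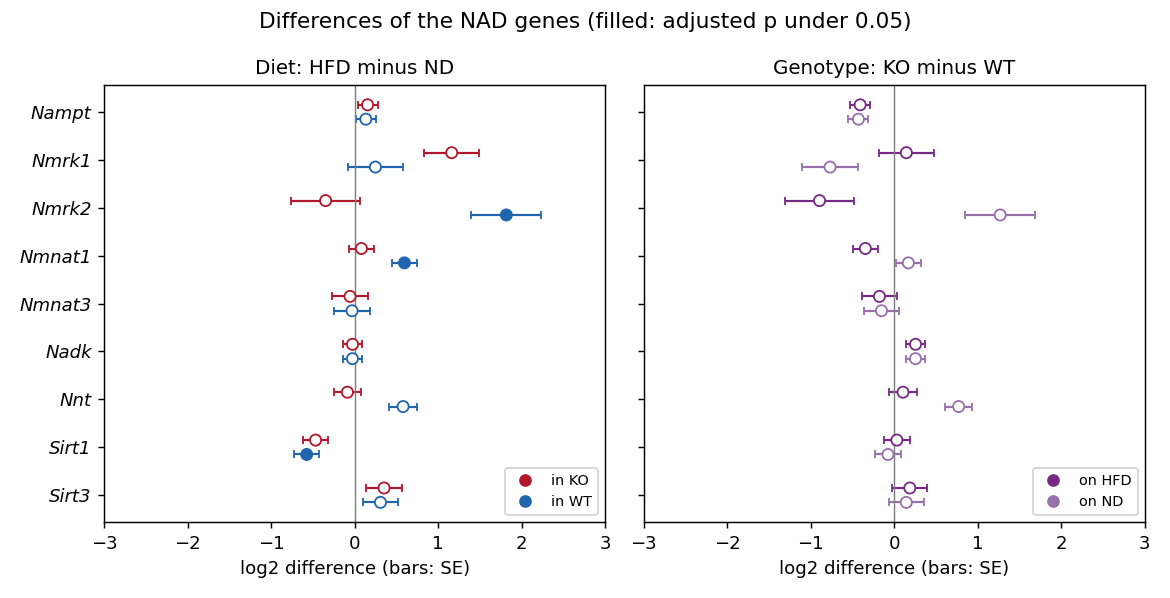
Log2 differences of the 9 genes, with SE bars, for diet (left: HFD minus ND in KO, red, and in WT, blue) and genotype (right: KO minus WT on HFD, dark purple, and on ND, light purple). Filled points passed an adjusted p of 0.05. The filled points are Nmrk2 at 1.82, Nmnat1 at 0.59 and Sirt1 at −0.58, all for diet in WT.

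The genotypes were then compared on each diet. On HFD, 0 of 9 were called between KO and WT, with a background of 0.732%. The unadjusted limma p was under 0.05 for 3 of 9 members and for 1681 of all 11345 genes. On ND, 0 of 9 were called, with a background of 0.414%. The unadjusted limma p was under 0.05 for 5 of 9 members and for 1277 of all 11345 genes. Averaged over diets, 1 of 9 was called, Nampt, which was lower in KO, against a background of 1.61% in either direction and 0.714% lower. The test of whether the diet effect depended on genotype called 0 of 9, with a background of 0.141%. Its unadjusted limma p was under 0.05 for 3 of 9 members and for 1178 of all 11345 genes.

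**Figure D2:**
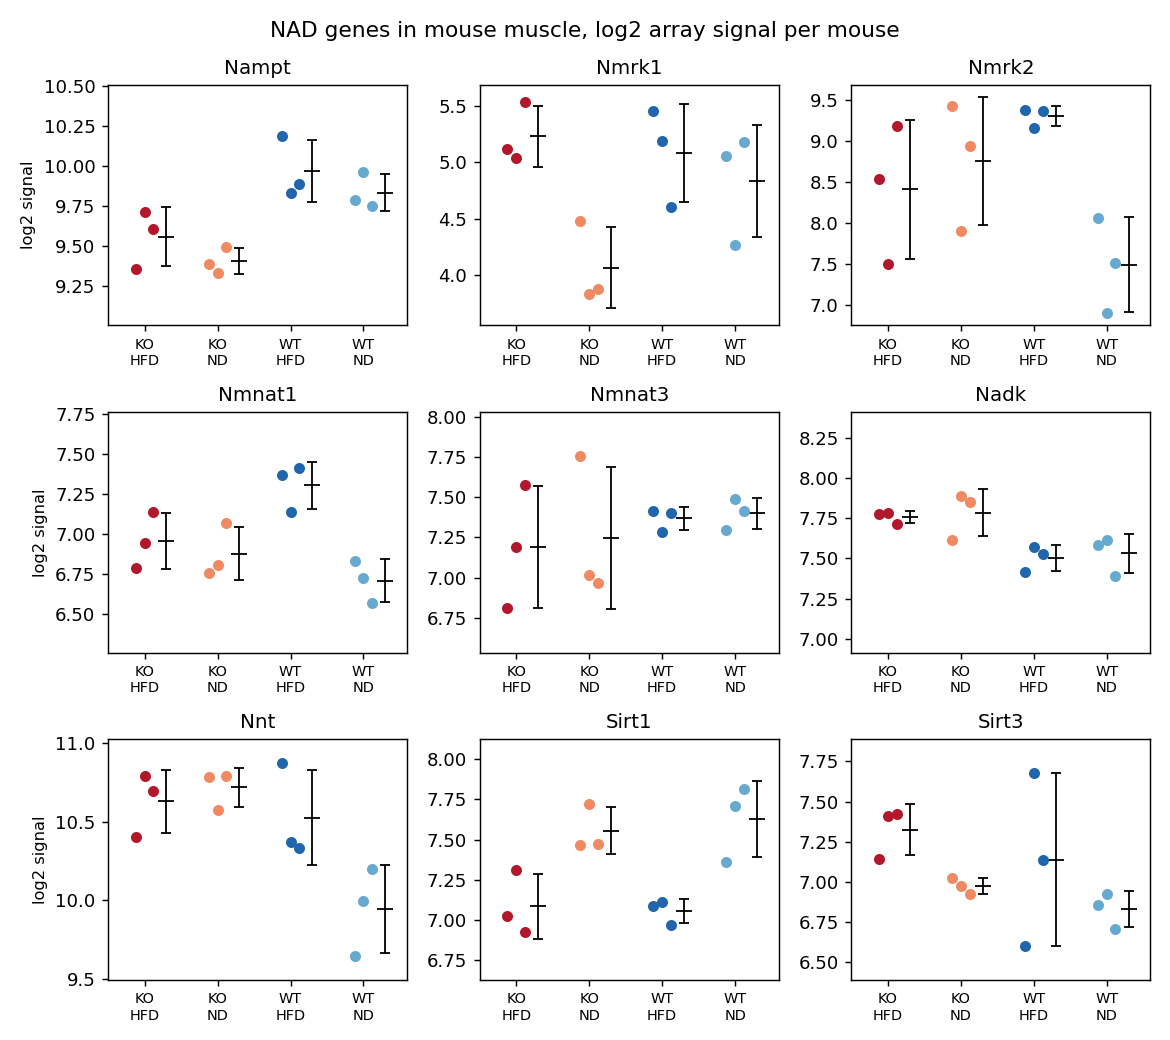
Log2 array signal of the 9 genes in each mouse (points), with the group mean and SD (bars), in the order KO HFD, KO ND, WT HFD and WT ND, on an axis of its own for each gene. The WT ND mice are low for Nnt (9.65 to 10.20), and the 6 HFD mice are low for Sirt1 (6.92 to 7.31).

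Nmrk2, the muscle nicotinamide riboside kinase, had the widest spread of the members. Its log2 signals were 9.38, 9.16 and 9.37 in WT HFD, against 8.05, 6.89 and 7.51 in WT ND. All WT HFD mice lay above all WT ND mice, and the difference was 1.82 ± 0.42 (SE, n = 3 per group, limma adjusted p = 0.0231). In KO the values were 8.53, 7.50 and 9.18 on HFD, against 9.42, 7.90 and 8.94 on ND. The KO groups overlapped throughout, with a difference of −0.35 and a 95% interval of −1.25 to 0.55 (limma adjusted p = 0.696). The direct test of the difference between these diet effects gave −2.16 ± 0.59 (SE), unadjusted p = 0.0027 and limma adjusted p = 0.229, so a dependence on genotype did not pass. On ND the KO mean was 8.75 ± 0.78 and the WT mean 7.48 ± 0.58 (SD, n = 3), a difference of 1.27 (adjusted p = 0.257 in limma). On HFD the KO mean was 8.40 ± 0.85 and the WT mean 9.30 ± 0.13 (SD, n = 3), a difference of −0.90 (adjusted p = 0.338 in limma).

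The rise of Nmrk2 in WT lost its call without the intensity trend (limma adjusted p = 0.0703) and when any 1 of 5 mice was left out. The limma adjusted p was 0.108 without WT ND replicate 2, 0.0699 without WT ND replicate 3, and 0.0665, 0.0563 and 0.0592 without WT HFD replicates 1, 2 and 3. Averaged over genotypes, Nmrk2 was not called (0.73, adjusted p = 0.117), but it was with the 3′ to 5′ covariate (1.39, adjusted p = 0.0408) and without KO HFD replicate 2 (0.96, adjusted p = 0.0344). The size of the rise in WT stayed between 1.52 and 2.10 over the 12 fits that each left out a mouse. Between the WT groups, slow fibre markers were also higher on HFD. Their 7 genes, all above the filter, summed to a linear signal of 20014 to 22584 in WT HFD and 14061 to 17608 in WT ND. In WT 3 of 7 were called higher on HFD (Tnnc1, Myl2 and Myl3), against 3.07% of all genes. In KO these markers summed to 21491 to 27431 on HFD and 20903 to 23229 on ND, and 0 of 7 were called for diet, against 4.54% of all genes. For KO minus WT, 1 of 7 was called higher on ND, 0 on HFD and 3 averaged over diets. The shares of all genes called there in either direction were 0.414%, 0.732% and 1.61%. Mean Nmrk2 in KO was 8.40 on HFD and 8.75 on ND. The part of fibre type in the Nmrk2 difference was not tested.

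Nmrk1, the nicotinamide riboside kinase of most tissues, was dim. Its 3 probe sets averaged 4.81, 3.49 and 2.69, and the first alone passed the filter of 3.78. On that probe set the signals were 5.12, 5.04 and 5.54 in KO HFD, against 4.48, 3.84 and 3.88 in KO ND. The KO groups did not overlap, and the difference of 1.16 ± 0.33 (SE) missed the threshold (limma adjusted p = 0.0636). In WT the signals were 5.46, 5.19 and 4.61 on HFD, against 5.06, 4.27 and 5.18 on ND, which overlapped, with a difference of 0.25 and a 95% interval of −0.46 to 0.96. Averaged over genotypes the diet difference was 0.70 ± 0.23 (SE, limma adjusted p = 0.0626), and it was called in 3 of 20 alternatives: with array weights (0.79, adjusted p = 0.0346), with the 3′ to 5′ covariate (1.15, adjusted p = 0.0464) and without WT HFD replicate 3 (0.82, adjusted p = 0.0377). The KO diet difference was called with array weights (1.28, adjusted p = 0.0260) and with the 3′ to 5′ ratio entered as covariate (1.44, adjusted p = 0.0355).

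Nampt, the enzyme that makes NMN from nicotinamide, was lower in KO muscle on both diets. Its log2 signals were 9.35, 9.71 and 9.61 in KO HFD and 9.39, 9.33 and 9.49 in KO ND, against 10.19, 9.83 and 9.88 in WT HFD and 9.79, 9.96 and 9.75 in WT ND. Every KO mouse read at or below 9.71 and every WT mouse at or above 9.75, so the genotypes did not overlap. Averaged over diets the KO minus WT difference was −0.42 ± 0.08 (SE, n = 6 per genotype, limma adjusted p = 0.0265). It was −0.41 on HFD (adjusted p = 0.123) and −0.43 on ND (adjusted p = 0.173), each short of the threshold in limma. Diet moved Nampt little, by 0.15 in KO (95% interval −0.10 to 0.41) and 0.13 in WT (95% interval −0.13 to 0.39).

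The other Nampt probe sets were less clear. The second, with a mean of 9.28, read 8.95 to 9.31 in the 6 KO mice and 9.12 to 9.95 in the 6 WT mice, which overlap. The third, with a mean of 4.88, read 3.49 to 5.20 in KO and 4.97 to 5.62 in WT. In the fit over all 19387 passing probe sets, the brightest had an adjusted p of 0.0293 and neither of the others passed for genotype averaged over diets (−0.29, adjusted p = 0.343, and −0.71, adjusted p = 0.236), where 1.34% of probe sets were called. The Nampt call over genes was lost with averaged probe sets (adjusted p = 0.0847), without the intensity trend (0.0824) and with the 3′ to 5′ covariate (0.0585). It was also lost without any 1 of 7 mice: the limma adjusted p was 0.0750 without WT ND replicate 2, 0.0610 without WT HFD replicate 1, 0.0627, 0.0571 and 0.0504 without KO ND replicates 1, 2 and 3, and 0.0668 and 0.0507 without KO HFD replicates 1 and 3. Macrophages and adipocytes also express Nampt. The 7 macrophage markers, all above the filter, summed to 3576 to 6099 in KO HFD, 2390 to 3312 in KO ND, 1965 to 4150 in WT HFD and 3375 to 3803 in WT ND. The 5 adipocyte markers named, also all above the filter, summed to 15543 to 17192 in KO HFD, 7088 to 11187 in KO ND, 8589 to 15447 in WT HFD and 7544 to 9182 in WT ND. On ND the macrophage sum was lower in every KO mouse than in any WT mouse, the direction of Nampt, while on HFD the macrophage sums overlapped. The median KO minus WT log2 difference over the 7 macrophage markers was −0.51 on ND and −0.01 averaged over diets. On HFD it was 0.59, the direction opposite to Nampt. The adipocyte sum was higher in every KO HFD mouse than in any WT HFD mouse and overlapped between genotypes on ND. The part of these cells in the Nampt difference was not tested.

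Nmnat1, the nuclear enzyme that turns NMN into NAD, rose on HFD in WT. On its brightest probe set the log2 signals were 7.37, 7.14 and 7.41 in WT HFD, against 6.83, 6.73 and 6.57 in WT ND. All WT HFD mice were higher, and the difference was 0.59 ± 0.15 (SE, n = 3 per group, limma adjusted p = 0.0324). In KO the signals were 6.79, 6.95 and 7.14 on HFD, against 6.76, 6.81 and 7.07 on ND. These overlapped, with a difference of 0.08 and a 95% interval of −0.24 to 0.40. The test of the difference between the diet effects gave −0.52 ± 0.21 (SE, limma adjusted p = 0.404). Averaged over genotypes the diet difference was 0.34 ± 0.10 (SE, limma adjusted p = 0.0471).

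The second Nmnat1 probe set did not show the rise. It read 6.25, 6.87 and 6.97 in WT HFD, against 6.81, 6.61 and 6.62 in WT ND, which overlap. With the mean of both probe sets the WT difference was 0.31 (adjusted p = 0.213 in limma) and the averaged difference 0.16 (adjusted p = 0.303). For the brightest probe set the WT call was lost without WT ND replicates 2 (adjusted p = 0.0980) or 3 (0.119), and without WT HFD replicates 1 (0.0872) or 3 (0.0878). It was also lost with median centring (0.0923), only the groups compared (0.0686), no intensity trend (0.0502) and the 3′ to 5′ covariate (0.102). The averaged call was lost in 6 of 8 other settings, averaged probe sets included, and in 8 of the 12 fits that left out a mouse, with an adjusted p of 0.0386 to 0.115 over all 12: those without WT ND replicates 2 and 3, WT HFD replicates 1 and 3, KO ND replicates 1 and 2 and KO HFD replicates 2 and 3.

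Nmnat3 showed no called change. Its brightest probe set read 6.81 to 7.57 in KO HFD, 6.97 to 7.76 in KO ND, 7.28 to 7.42 in WT HFD and 7.30 to 7.49 in WT ND. The groups overlapped, and the WT mice lay within the range of the KO mice. The diet difference averaged over genotypes was −0.04, with a 95% interval of −0.37 to 0.28. Its other probe set averaged 2.28 and did not pass the filter.

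Nadk, which makes NADP from NAD, was 0.25 higher in KO averaged over diets (95% interval 0.08 to 0.43), short of the threshold (limma adjusted p = 0.146). Its brightest probe set read 7.78, 7.78 and 7.71 in KO HFD and 7.62, 7.89 and 7.85 in KO ND, against 7.41, 7.57 and 7.52 in WT HFD and 7.58, 7.62 and 7.39 in WT ND. The lowest KO mouse, at 7.62, was level with the highest WT mouse. The diet difference was −0.03 in KO and −0.03 in WT. The second probe set, with a mean of 5.11, was 0.28 lower in KO averaged over diets, the opposite direction, and did not pass (limma adjusted p = 0.627 over probe sets). Its KO minus WT difference was −0.58 on ND (limma adjusted p = 0.565) and 0.02 on HFD (0.986).

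Nnt set WT mice on ND apart. Its second probe set, with a mean of 10.15, read 10.37, 10.32 and 10.46 in KO HFD, 10.29, 10.18 and 10.30 in KO ND and 10.31, 10.44 and 10.31 in WT HFD, against 9.47, 9.72 and 9.59 in WT ND. The 9 mice of the other groups lay between 10.18 and 10.46, and the 3 WT ND mice lay below all of them. The brightest probe set, with a mean of 10.46 and a name ending in x_at, which marks probes that can also bind other transcripts, read 10.33 to 10.88 in those 9 mice and 9.65, 10.00 and 10.20 in WT ND. Both probe sets thus had the same group lowest. The third averaged 2.72 and did not pass the filter.

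By the rule of the brightest probe set, Nnt was not called. The diet difference in WT was 0.58 ± 0.16 (SE, limma adjusted p = 0.0552) and the KO minus WT difference on ND was 0.77 ± 0.16 (SE, limma adjusted p = 0.0673). In the fit over all probe sets the second one was called. It differed by 0.76 for diet in WT (limma adjusted p = 0.000716, background 5.21%), by 0.66 for KO minus WT on ND (adjusted p = 0.00784, background 0.304%), by 0.44 for diet averaged over genotypes (adjusted p = 0.000902, background 11.2%) and by 0.35 for KO minus WT averaged over diets (adjusted p = 0.0166, background 1.34%). Its diet effect in KO minus that in WT was −0.63 (adjusted p = 0.117), short of the threshold. With the mean of the passing probe sets, Nnt was called for diet in WT (0.67, limma adjusted p = 0.00478) and for KO minus WT on ND (0.72, adjusted p = 0.0237). The brightest probe set was called for KO minus WT on ND with array weights (adjusted p = 0.0386) and without WT HFD replicate 1 (0.0347), and for diet in WT without KO HFD replicate 1 (0.0463).

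C57BL/6J mice are known to carry a deletion within Nnt, while 129/Sv mice are not known for it, so a mixed background can hold both alleles. Which allele each mouse carried, whether the C57BL/6 parent was of that substrain, and where the probe sets lie relative to the deletion are absent from the sources used here, so the part of the allele was not tested. The nearest 10 tested genes on chromosome 13, 5 on either side of Nnt in the GRCm38.p6 gene order, were looked at after the Nnt values were seen. Of them 0 were called for diet in WT and 0 for KO minus WT on ND, where 6.06% and 0.414% of all genes were called, so counts of 0 say nothing of the allele. Hmgcs1, an enzyme of cholesterol synthesis, was called for diet averaged over genotypes (0.35, limma adjusted p = 0.0413), where 13.7% of all genes were called. No other of the 10 was called in any contrast. The sum of slow fibre markers, given above, was also lowest in WT ND.

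**Figure D3:**
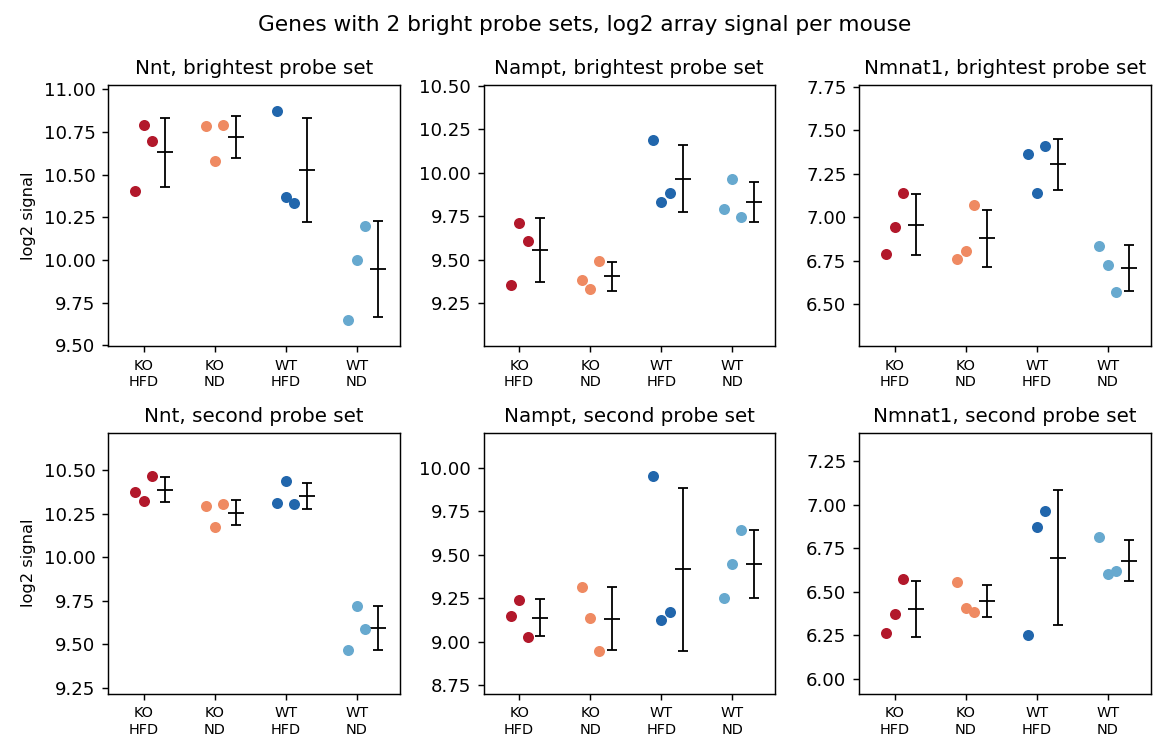
Log2 array signal per mouse (points), with group mean and SD (bars), on the brightest (top) and second (bottom) probe sets of Nnt, Nampt and Nmnat1, in the order KO HFD, KO ND, WT HFD and WT ND. The WT ND mice are lowest on both Nnt probe sets, the genotypes separate on the brightest Nampt probe set, and the rise of Nmnat1 in WT HFD is on its brightest probe set.

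Sirt1, the nuclear sirtuin, fell on HFD, and of the 6 calls among the members its averaged diet effect was the one kept under all 20 alternatives. The log2 signals were 7.02, 7.31 and 6.92 in KO HFD and 7.09, 7.11 and 6.97 in WT HFD, against 7.47, 7.72 and 7.47 in KO ND and 7.36, 7.71 and 7.82 in WT ND. The highest of the 6 HFD mice read 7.31 and the lowest of the 6 ND mice 7.36, so the diets did not overlap. The averaged difference was −0.52 ± 0.11 (SE, n = 6 per diet, limma adjusted p = 0.00687), with adjusted p between 0.00303 and 0.0353 over the alternatives. It was −0.47 ± 0.15 in KO (adjusted p = 0.0956, called with array weights at 0.0449) and −0.58 ± 0.15 in WT (adjusted p = 0.0399, limma), and the test of the difference between these gave 0.11, with a 95% interval of −0.35 to 0.57. Sirt1 did not separate the genotypes, at −0.02 averaged over diets with a 95% interval of −0.25 to 0.21.

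The call for Sirt1 in WT alone was lost in 12 of 21 alternatives. The limma adjusted p was 0.0531 with no intensity filter, 0.0608 with quantile normalization, 0.0847 with only the groups compared, 0.0707 without the intensity trend and 0.0998 with the 3′ to 5′ covariate. It was 0.144 and 0.152 without WT ND replicates 2 and 3, 0.0820, 0.0870 and 0.100 without WT HFD replicates 1, 2 and 3, and 0.0509 and 0.0552 without KO ND replicates 1 and 3. Sirt1 had 1 probe set.

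Sirt3, the main mitochondrial deacetylase, read 7.14, 7.41 and 7.42 in KO HFD, against 7.02, 6.97 and 6.93 in KO ND. All KO HFD mice were higher, by 0.35 ± 0.21 (SE), and the difference was not called (limma adjusted p = 0.380). In WT the signals were 6.60, 7.68 and 7.13 on HFD, against 6.86, 6.92 and 6.71 on ND. WT HFD held both the lowest and the highest of all 12 values. Averaged over genotypes the diet difference was 0.33 ± 0.15 (SE, limma adjusted p = 0.161), and it was called without WT HFD replicate 1, the lowest mouse (0.46, adjusted p = 0.0249).

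Beyond the 9 members, 53 other genes of NAD synthesis and use were listed by role, of which 38 were tested, 11 fell below the filter and 4 had no probe set of their own in the annotation used. Averaged over genotypes, 3 of the 38 rose on HFD, 1 fell and 34 did not pass, a share of 10.5% against 13.7% of all genes. In WT alone 0 rose, 1 fell and 37 did not pass, against 6.06% of all genes called, with 7 at an unadjusted p under 0.05. In KO alone 0 were called against 4.54% of all genes, with 9 at an unadjusted p under 0.05. For KO minus WT, 0 were called on HFD, on ND or averaged over diets, with 5 at an unadjusted p under 0.05 each time. The shares of all genes called there were 0.732%, 0.414% and 1.61%. The interaction called 0 against 0.141% of all genes, with 2 at an unadjusted p under 0.05. Of all 11345 genes, 2609 had an unadjusted limma p under 0.05 for diet in WT, 2262 for diet in KO and 1178 for the interaction. For KO minus WT there were 1681 on HFD, 1277 on ND and 1737 averaged over diets. All 8 named genes of de novo synthesis from tryptophan, among them Tdo2, Kmo and Qprt, and the glycohydrolases Bst1 and Sarm1 had means below the filter, as did the transporter Slc12a8.

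Of the 4 called genes, 3 were ADP-ribosyl transferases, the role of 17 of the 38 tested genes. Over all genes 13.7% were called for diet averaged over genotypes, so 3 of 17 does not single out this role. Tiparp, a mono-ADP-ribosyl transferase induced by the aryl hydrocarbon receptor, had log2 signals of 8.21, 8.12 and 7.84 in KO HFD and 8.05, 7.60 and 8.41 in WT HFD, against 9.09, 8.74 and 9.17 in KO ND and 8.98, 10.32 and 9.97 in WT ND. Every HFD mouse was lower than every ND mouse. The averaged difference was −1.34 ± 0.20 (SE, limma adjusted p = 0.00120). It was −0.94 in KO (adjusted p = 0.0772) and −1.74 in WT (adjusted p = 0.00468, limma), and the difference between these was not called (0.80, adjusted p = 0.513). Some alternatives called the KO difference: median centring (limma adjusted p = 0.0496), only the groups compared (0.00855), array weights (0.0284) and without WT ND replicate 1 (0.0209). Without that mouse KO minus WT on ND was also called (−1.15, limma adjusted p = 0.0399).

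Parp14 and Parp9, interferon-inducible members of the family, rose on HFD. Parp14 had signals of 6.37, 5.71 and 6.24 in KO HFD and 6.14, 6.38 and 5.91 in WT HFD, against 4.91, 5.30 and 5.67 in KO ND and 5.33, 5.78 and 5.35 in WT ND. The diets overlapped by the KO HFD mouse at 5.71, and the averaged difference was 0.74 ± 0.17 (SE, limma adjusted p = 0.0142). Parp9 rose by 0.65 ± 0.18 (SE, adjusted p = 0.0308 in limma), a call lost in 8 of the 12 fits that left out a mouse (adjusted p 0.00556 to 0.0754 over the 12). The Parp9 call was also lost with no intensity filter (limma adjusted p = 0.0501) and with median centring (0.074). With the 3′ to 5′ ratio entered as covariate neither was called (adjusted p = 0.243 for Parp14 and 0.0960 for Parp9). Macrophages express both genes, and the macrophage sums given above were higher on HFD in KO and overlapped between diets in WT. The median log2 difference for diet over the 7 macrophage markers was 0.69 in KO and −0.35 in WT. The part of these cells in the Parp14 and Parp9 values was not tested. Naxe, which repairs hydrated NADH, rose by 0.24 ± 0.07 (SE, adjusted p = 0.0340 in limma), a call lost in 9 of those 12 fits (adjusted p 0.0166 to 0.0848). The Naxe call was also lost with median centring (limma adjusted p = 0.289), without the intensity trend (0.0616) and with the 3′ to 5′ covariate (0.111).

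Naxe aside, the brightest tested genes of the roles did not pass in any contrast of the fit described. For diet averaged over genotypes the difference was 0.34 (adjusted p = 0.201) for the NAD synthetase Nadsyn1, −0.22 (0.232) for the nucleotidase Nt5c3, 0.16 (0.144) for the mitochondrial NAD carrier Slc25a51, −0.03 (0.913) for the cytosolic sirtuin Sirt2 and −0.17 (0.145) for the muscle ADP-ribosyl transferase Art1, all in limma. Some alternatives called them: Art1 averaged over genotypes with averaged probe sets (−0.24, adjusted p = 0.0400), Nadsyn1 for diet in KO with array weights (0.86, adjusted p = 0.0373) and with the 3′ to 5′ covariate (0.97, adjusted p = 0.0467), and Nt5c3 for KO minus WT averaged over diets without KO HFD replicate 2 (−0.47, adjusted p = 0.0338).

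**Figure D4:**
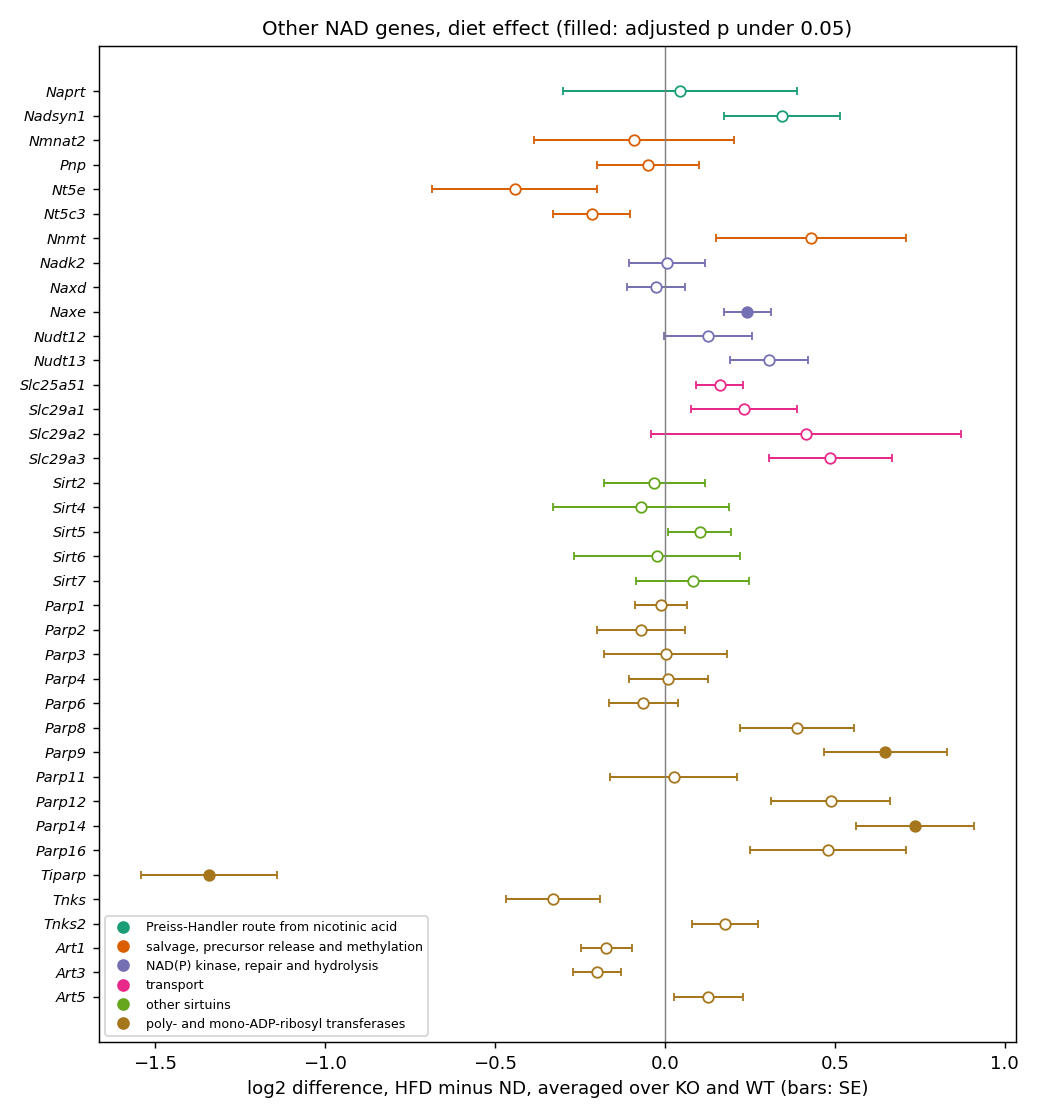
Log2 difference between HFD and ND, averaged over KO and WT, for the 38 tested genes of the wider list, with SE bars and coloured by role. Filled points passed an adjusted p of 0.05: Tiparp at −1.34, Parp14 at 0.74, Parp9 at 0.65 and Naxe at 0.24.

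Genes whose pattern lay nearest to each called member were found by the root mean square difference over the 12 arrays, after each gene's own mean was subtracted. For Sirt1 they were Dnttip2 (0.09), Rbm7 (0.11) and Sertad2 (0.13), and for Nampt Idua (0.10), Usp13 (0.11) and Nxn (0.13). For Nmnat1 they were Prkcq (0.09), Iftap (0.11) and Aamdc (0.11). For Nmrk2 they were Zfp2 (0.49), Tbc1d32 (0.51) and Fam166a (0.56). The member's own SD over the arrays was 0.88 for Nmrk2, 0.31 for Sirt1, 0.26 for Nampt and 0.26 for Nmnat1. Distances are not scaled to that spread, so they cannot be compared between members. These distances are a description of 12 arrays that share their groups.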

How the data were processed

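Muscle RNA of 12 mice was hybridised to 1 Affymetrix array each. The authors deposited log2 signals, and the submitters' processing notes name MAS5, with no version in the sources used here. Back on the linear scale, the mean after trimming the lowest 2% and all above the percentile 98 was 100.0 on every array, and array medians were 3.87 to 4.16 on the log2 scale. Values were used as deposited. Of 45101 probe sets, 64 controls were left out; 34945 carried 1 gene symbol, 932 several and 9160 none, in the platform annotation used. Probe sets with a mean above 3.78 (13.8 on the linear scale) passed, and the brightest per symbol gave 11345 genes.

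One model over the 12 arrays (4 group means, 7 contrasts) was fitted with limma 3.58.1 (R 4.3.3), moderating variances along an intensity trend (residual degrees of freedom 8, prior 5.42), with Benjamini-Hochberg adjustment within each contrast at 0.05. The fit was tested on simulated data. The number of arrays limits the precision, and p-values measure the spread between these mice.

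Members and lists were chosen with earlier results of these data known. Named are all 9 members, genes of the wider list past the threshold in any contrast, the brightest of each role, and the 3 nearest patterns of each called member; other genes are said to have been chosen after their values were seen. Marker genes of other cell types are given as values. Tables and figures used Python 3.11.15, pandas 2.3.3 and matplotlib 3.10.9. The alternatives were the filter, an offset before log2, quantile normalization, median centring, averaged probe sets, only the groups compared, no trend, array weights, the 3′ to 5′ control ratio entered as covariate, and each mouse left out.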

Additional observations from a re-analysis of the deposited data

How the results depend on the processing

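Over 21 alternatives, 1228 of 1296 member differences stayed on the same side of the threshold, 51 lost a call and 17 gained one. None of the called differences turned its sign, while 69 that were never called did. The members called for diet in WT numbered 3 as reported, 1 with only the groups compared, 0 without the intensity trend, 1 with the 3′ to 5′ control ratio entered as covariate, and 0 to 4 with a mouse left out. Calls over all 11345 genes moved too, from 687 as reported to 383 with only the groups compared and 311 without the trend. They numbered 186 with the covariate and 199 to 918 with a mouse left out. For diet in KO the members called numbered 0, then 2 with array weights and 1 with the covariate. All genes called numbered 515, then 881 with array weights and 265 with the covariate. For KO minus WT on ND the members called numbered 0, then 1 with averaged probe sets, 1 with array weights, and 0 to 1 with a mouse left out. All genes called numbered 47, then 26 with averaged probe sets, 90 with array weights, and 9 to 68 with a mouse left out. For diet averaged over genotypes the members called numbered 2, then 1 with no filter, quantile normalization, median centring or no trend (1 each), 3 with array weights, 3 with the covariate, and 1 to 2 with a mouse left out. All genes called numbered 1552, then 1216 of 18193 with no filter and 1542 of 11346 with quantile normalization. They numbered 1195 with median centring, 1172 without the trend, 1869 with array weights, 522 with the covariate, and 1021 to 1689 with a mouse left out. For KO minus WT averaged over diets the members called numbered 1, then 0 without the trend, 0 with the covariate, and 0 to 1 with a mouse left out. All genes called numbered 183, then 61 without the trend, 104 with the covariate, and 66 to 287 with a mouse left out. The wider list called 1 gene for diet in WT, then 2 with array weights (780 of all genes) and 1 to 3 with a mouse left out. For diet in KO the wider list called 0, then 1 with median centring, 2 with only the groups compared, 2 with array weights, 1 with the covariate, and 0 to 1 with a mouse left out. All genes called numbered 413 with median centring, 558 with only the groups compared and 133 to 556 with a mouse left out. For diet averaged over genotypes the wider list called 4, then 2 with median centring, 1 with the covariate, and 2 to 5 with a mouse left out. For KO minus WT it called 0, then 0 to 1 with a mouse left out, on ND and averaged over diets. The cause of these changes was not tested. The mouse numbers of the labels differ between all groups. No paired analysis was possible because every mouse has a number of its own and the sources used here state no litter.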

Other observations

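Nnmt, which methylates nicotinamide and so removes it from salvage, was chosen after its values were seen. Its log2 signals were 7.42, 7.47 and 6.93 in KO HFD, against 5.33, 5.83 and 6.58 in KO ND, and these groups did not overlap. In WT they were 6.75, 6.96 and 5.50 on HFD, against 6.53, 7.55 and 6.62 on ND, which overlapped. The diet difference was 1.36 ± 0.40 (SE) in KO (limma adjusted p = 0.0692) and −0.50 in WT (adjusted p = 0.491), and the difference between them was 1.85 ± 0.56 (SE, adjusted p = 0.284), so none of the 3 passed. The KO difference was called in 3 of 21 alternatives, with adjusted p between 0.0297 and 0.224 over all of them. The fibroblast markers, in whose cells Nnmt is also expressed, summed to 10044 to 13302 in KO HFD, 8066 to 8476 in KO ND, 6419 to 9014 in WT HFD and 7577 to 8378 in WT ND. Adipocytes express it too, and their markers summed to 15543 to 17192 in KO HFD, 7088 to 11187 in KO ND, 8589 to 15447 in WT HFD and 7544 to 9182 in WT ND. The median log2 difference for diet in KO was 1.66 over the 5 adipocyte markers and 0.87 over the 5 fibroblast markers. The part of these cells in the Nnmt values was not tested.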
